A study of Mus musculus with 40 samples.

Results

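Whole lungs of AJ mice were compared between 24 h and 6 h after aspiration of phosphate-buffered saline (PBS) alone, without allergen. The arrays were chosen by the strain, treatment and time in their titles: 5 arrays at 24 h and 5 at 6 h, 10 of the 40 arrays of the series. AJ is an inbred strain that the labels call hyperresponsive. The comparison follows the lung as the time since saline aspiration and handling grows, and no untreated lung was used here, so each value is a difference between the 2 times and not a departure from rest. Beside it stand C3H mice given PBS (5 arrays at each time) and AJ mice given an allergen in PBS (5 arrays at each time), for which the titles and the descriptions name different allergens. Every description says AJ, even on arrays titled C3H, and strain follows the titles here. Neither age, sex nor time of day is labelled, so time since aspiration and time of day cannot be told apart. Nothing in the labels ties each numbered array to its own mouse, so the p-values speak for the spread among arrays, part of which may be technical.

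Levels are the intensities of 1-colour Affymetrix arrays as the authors deposited them, and those of replicates 1 to 5 are given in that order. Changes are differences of mean log2(intensity + 16), 24 h minus 6 h, with the standard error (SE) and adjusted p from limma over 12393 genes. A gene is said to have risen or fallen where its adjusted p was under 0.05. In bulk lung, fewer cells of a type and less RNA per cell cannot be told apart. The number of arrays limits the precision.

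Fluid in the airways and the handling of an animal can engage several stress systems. The transcription factor HSF1 switches on chaperone genes through heat shock elements when proteins misfold. NRF2 does the same for glutathione, thioredoxin and haem oxygenase genes through antioxidant response elements, and metal-bound MTF1 acts on the metallothioneins. Corticosterone, released under stress and with the daily rhythm, acts through the glucocorticoid receptor on genes such as Fkbp5 and Tsc22d3, while injury and stretch switch on immediate early genes and chemokines within hours.

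The 15 largest falls from 6 h to 24 h, taken over genes that passed with separate groups, included those of the inducible Hsp70 chaperones Hspa1b and Hspa1a, haem oxygenase Hmox1, sulfiredoxin Srxn1, the glutathione enzyme Gclc, the glucocorticoid-responsive genes Zbtb16 and Fkbp5, and the chemokine Cxcl1. The 15 largest rises chosen in the same way included Blvrb and Cckar. Of 12393 genes, 666 passed the threshold, which is 5.37% of those tested. Of these 359 rose (2.9%) and 307 fell (2.48%). With each array centred on its median, 250 rose and 369 fell. The median change over all genes was -0.02. Of the changes that passed, 4 falls and 3 rises were 2 or more on the log2 scale, and 37 falls and 46 rises were 1 or more. The 2 groups of 5 arrays did not overlap for 763 genes (6.16% of those tested), of which 434 passed the threshold.

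The count depended on single arrays. Without 6 h replicate 2 it was 342, without 6 h replicate 3 it was 350, without 24 h replicate 2 it was 412, and without 6 h replicates 2 and 3 together, which leaves 3 arrays at 6 h, it was 137, of which 132 were among the 666. Of the 137 genes 63 rose and 74 fell, and of the 342 genes 173 rose and 169 fell. Counts of list members in such fits are to be read beside these totals, since fewer genes of any kind passed. 6 h replicates 2 and 3 had the highest values of an RNA control, the log2 ratio of the 3′ to the 5′ Gapdh control probe set, which is high where RNA is broken or copied short. It was -0.32, 0.45, 0.84, -0.27 and 0.22 at 6 h and -0.38, -0.27, -0.47, -0.07 and -0.24 at 24 h. The mean ratio was 0.47 lower at 24 h, with an exact permutation p of 0.0952 (two-sided, 5 against 5, smallest possible p 0.00794; adjusted p = 0.175 over the Gapdh and actin ratios). The part of RNA quality in the results was not tested beyond the values given here.

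Markers of the lung itself were high on all 10 arrays and did not pass the test. Sftpc, the surfactant protein of alveolar type 2 cells, read 4462 to 6431 on the 10 arrays with a change of 0.08 (adjusted p = 0.827), and Scgb1a1, the secretory protein of club cells, read 4418 to 6464 with a change of 0.15 (adjusted p = 0.556). The pan-leukocyte marker Ptprc changed by -0.09 (adjusted p = 0.868). Of the marker lists, 0 of 15 alveolar, 0 of 23 macrophage, monocyte and dendritic cell, 0 of 23 T and NK cell, 0 of 12 B and plasma cell and 0 of 6 eosinophil genes passed, against 5.37% of all genes.

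Transcripts of tissues next to the lung differed between arrays far more. The mean log2 level of 18 skeletal muscle genes was 6.05, 5.99, 7.66, 6.88 and 8.85 at 6 h and 9.10, 9.41, 8.72, 8.004 and 9.67 at 24 h. That of 30 genes of stratified squamous epithelium, the lining of the oesophagus and upper throat, was 5.29, 5.41, 5.21, 6.16 and 7.88 at 6 h and 7.67, 7.15, 7.84, 6.78 and 7.67 at 24 h. All 24 h arrays and 6 h replicate 5 thus lay above the other 6 h arrays in squamous genes. The 11 cardiac genes did not follow: their mean was 8.25 ± 0.12 at 6 h and 8.32 ± 0.47 at 24 h (SD, n = 5), with 24 h replicate 3 highest at 9.14. Adipose genes also differed more within than between the times, 6.30 to 7.53 at 6 h and 6.55 to 8.65 at 24 h. The skeletal, cardiac and squamous groupings were drawn up after the values were seen. Of the 29 muscle genes together 3 rose, and leaving out 1 array gave 0 to 13, the most without 6 h replicate 5. What part these tissues have in the changes below was not tested beyond the covariate values given beside them.

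**Figure D1:**
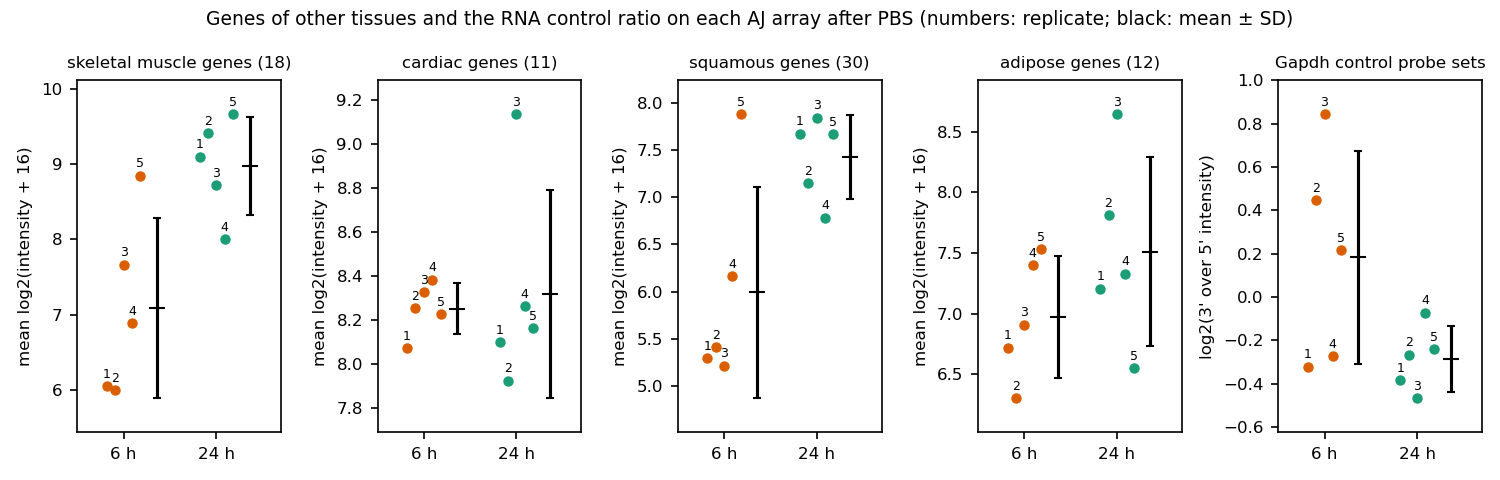
Mean log2(intensity + 16) of skeletal muscle, cardiac, squamous epithelium and adipose genes, and the log2 ratio of the 3′ to the 5′ Gapdh control probe set, on each AJ array after PBS; points are arrays labelled with their replicate number, and black bars are the mean ± SD of 5. Skeletal muscle genes are lowest on 6 h replicates 1 and 2, squamous genes are high on 6 h replicate 5 as on the 24 h arrays, and the Gapdh ratio is highest on 6 h replicates 2 and 3.

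Several heat shock chaperones fell. Of 20 measured genes of the list 7 were lower at 24 h and 0 higher, against 2.48% of all genes lower, and the list's median was -0.25 against -0.02 for all genes. Without 6 h replicates 2 and 3, 4 genes fell. Hspa1b, an inducible Hsp70 that refolds damaged proteins, read 2571, 2273, 2829, 2001 and 1801 at 6 h and 198, 133, 241, 322 and 181 at 24 h. Every 6 h array lay at or above 1801 and every 24 h array at or below 322, and it fell by 3.36 ± 0.23 (SE, adjusted p = 1.59e-12).

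Its neighbour Hspa1a, which encodes nearly the same protein, read 653, 544, 639.8, 549.5 and 351 at 6 h and 79.1, 54.8, 114, 105 and 66.4 at 24 h. It fell by 2.50 ± 0.25 (SE, adjusted p = 2.14e-08), again with no overlap. The 2 genes are near-identical copies, so probe sets may read both and the split between them is uncertain. The 3 Hspa1b probe sets changed by -3.36, -3.17 and -3.67. Promoters are shown for the chaperone genes that fell and hold a heat shock element, the sequence HSF1 is known to bind. The element was searched as GAANNTTC, which reads the same on both strands, in the 150 bases before the start of transcription (RefSeq, build GRCm38.p6). It occurred in 3.95% of 32851 promoters. Of the 20 chaperone genes 17 had a promoter in the table and 6 of these held it. Of the 7 that fell, 6 had a promoter and 4 of these held it. Over all genes with a promoter, 10 of 236 that fell, 7 of 298 that rose and 350 of the 9887 tested (3.54%) held it. The Hspa1a window, not printed, has the same base as that of Hspa1b at 149 of 150 positions. Capitals mark the element in Hspa1b (chr17:34959239-34959388, minus strand), Hspb1 (chr5:135887769-135887918, plus strand), which holds 2, and 1 of the Dnaja1 starts (chr4:40722318-40722467, plus strand).
Hspa1b: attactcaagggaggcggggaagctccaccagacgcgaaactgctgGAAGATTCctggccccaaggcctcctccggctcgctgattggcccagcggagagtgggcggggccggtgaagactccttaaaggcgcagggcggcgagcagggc
Hspb1: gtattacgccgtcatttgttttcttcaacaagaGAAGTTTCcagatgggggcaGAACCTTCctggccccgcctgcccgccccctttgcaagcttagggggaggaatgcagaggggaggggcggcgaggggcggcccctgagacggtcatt
Dnaja1: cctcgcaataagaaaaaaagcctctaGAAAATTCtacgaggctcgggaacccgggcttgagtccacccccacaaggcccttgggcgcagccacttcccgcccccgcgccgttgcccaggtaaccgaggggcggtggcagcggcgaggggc

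The co-chaperones moved less. Dnaja1, a J-domain partner of Hsp70, read 1340.0, 1114, 1291, 931 and 911 at 6 h and 661, 441, 373, 521 and 513 at 24 h. It fell by 1.14 ± 0.25 (SE, adjusted p = 0.00503), with no overlap between the times, and its probe sets changed by -1.14 and -1.22. Hsph1, a nucleotide exchange factor of Hsp70, read 381, 337, 488, 423 and 303 at 6 h and 231, 182, 165, 199 and 184 at 24 h and fell by 0.94 ± 0.18 (SE, adjusted p = 0.00108). Dnajb1, another J-domain protein, fell by 0.88 ± 0.23, the small heat shock protein Hspb1 fell by 0.71 ± 0.15, and the stress-inducible Hsp90 gene Hsp90aa1 fell by 0.63 ± 0.16. Leaving out 6 h replicates 2 and 3, Dnaja1 was at -1.06 (adjusted p = 0.0751), Dnajb1 at -0.83 (adjusted p = 0.154) and Hsp90aa1 at -0.52 (adjusted p = 0.226). With the mean of its probe sets Hsp90aa1 did not pass. The constitutive Hspa8 did not pass although its groups did not overlap, with -0.32 (adjusted p = 0.155), nor did the mitochondrial pair Hspd1 (-0.21, adjusted p = 0.415) and Hspe1 (-0.26, adjusted p = 0.493), Bag3 (-0.09, adjusted p = 0.843) or Stip1 (0.06, adjusted p = 0.859).

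Genes of metal, haem and antioxidant defence also fell: 8 of 23 were lower at 24 h and 1 was higher, beside 2.48% and 2.9% of all genes. The list's median was -0.18, with 14 negative and 9 positive changes. The fall was seen for 7 genes without 6 h replicates 2 and 3. Hmox1, which breaks haem down to biliverdin, iron and carbon monoxide, read 565, 710.3, 398, 518 and 474 at 6 h and 115, 101, 123, 90.5 and 109 at 24 h. No 24 h array reached the lowest 6 h array, and Hmox1 fell by 2.13 ± 0.25 (SE, adjusted p = 4.73e-07). Srxn1, which repairs oxidised peroxiredoxins, read 396, 521, 481, 565 and 423 at 6 h and 106, 114, 150.4, 104 and 132 at 24 h. It fell by 1.84 ± 0.16 (SE, adjusted p = 3.26e-10), and its 4 probe sets changed by -0.79 to -1.84.

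Gclc, the catalytic subunit of the first enzyme of glutathione synthesis, read 1719, 1855, 1424, 1458 and 1102 at 6 h and 739, 302, 489.6, 472 and 439.8 at 24 h, and fell by 1.63 ± 0.20 (SE, adjusted p = 1.33e-06). Osgin1, an oxidative stress-induced growth inhibitor, read 134, 183, 131, 209.8 and 131 at 6 h and 32.4, 37.7, 34.4, 19.3 and 28 at 24 h. It fell by 1.90 ± 0.25 (SE, adjusted p = 4.56e-06). Txnrd1, the cytosolic thioredoxin reductase, fell by 1.29 ± 0.10 (SE, adjusted p = 2.04e-11) and the cystine transporter Slc7a11 by 0.69 ± 0.15. The 1 gene of the list that rose was Blvrb, biliverdin reductase B. It read 17.9, 13.9, 15.5, 10.6 and 60.4 at 6 h and 179, 135, 109, 134 and 222 at 24 h, so that 6 h replicate 5 lay apart from the other 6 h arrays but below all 24 h arrays, and it rose by 2.20 ± 0.35 (SE, adjusted p = 9.29e-05). That 6 h array was also high in squamous genes, and with the squamous and skeletal muscle means as covariates the rise of Blvrb was 1.87 (adjusted p = 0.00231).

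A form of the antioxidant response element, through which NRF2 acts, was searched as TGANTCAGC on both strands in the same 150 bases. It occurred in 0.709% of all promoters and in 0.89% of the tested genes with a promoter. Of the 8 genes that fell, 6 were in the promoter table and 3 held it, with none among the other members with a promoter, 18 in all. Over all genes that passed, 4 of 236 that fell and 5 of 298 that rose held it. In a wider set of 32 NRF2 targets, drawn up after the values were seen, 26 had a promoter and 3 held it, and of the 8 of these that fell 2 held it. The element's spelling was chosen with the sequences in view, so its counts among these members are no test of an excess. The element is shown in capitals in Srxn1 (chr2:152105374-152105523, plus strand), Osgin1 (chr8:119436997-119437146, plus strand), where it lies on the opposite strand, and Mt2 (chr8:94172468-94172617, plus strand). A match describes these letters, is not a binding site measured here, and does not tell which factor would bind.
Srxn1: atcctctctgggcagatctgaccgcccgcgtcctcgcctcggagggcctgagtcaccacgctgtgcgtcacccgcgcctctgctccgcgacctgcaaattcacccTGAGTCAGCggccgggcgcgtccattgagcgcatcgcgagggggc
Osgin1: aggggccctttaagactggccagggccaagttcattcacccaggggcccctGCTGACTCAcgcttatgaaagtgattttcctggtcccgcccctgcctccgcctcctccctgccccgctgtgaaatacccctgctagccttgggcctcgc
Mt2: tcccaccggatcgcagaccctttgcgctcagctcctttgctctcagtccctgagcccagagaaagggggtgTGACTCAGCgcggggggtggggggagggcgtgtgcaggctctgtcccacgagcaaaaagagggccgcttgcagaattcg

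**Figure D2:**
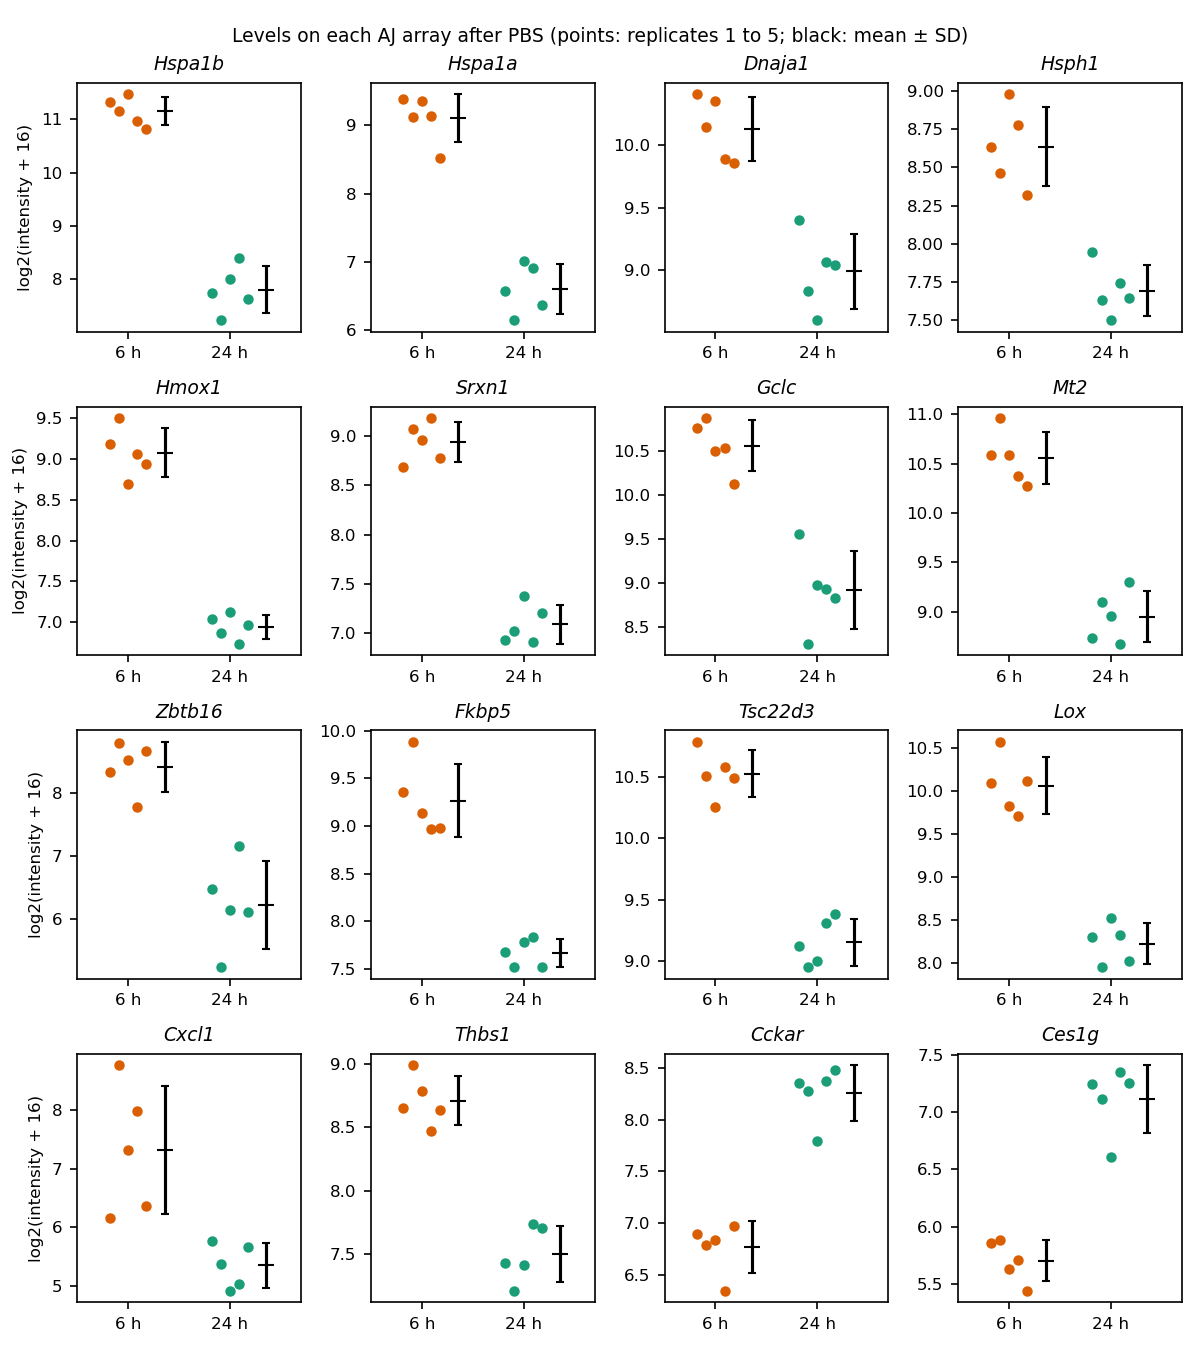
Log2(intensity + 16) of 16 genes on each AJ array at 6 h and 24 h after PBS; points are replicates 1 to 5 from left to right and black bars are the mean ± SD of 5. The 14 genes of chaperone, antioxidant, glucocorticoid-responsive, matrix and chemokine groups are lower at 24 h and Cckar and Ces1g are higher, with no overlap between the times in any panel. The genes were chosen on these values, most of them by a rule that requires no overlap.

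Metallothioneins Mt1 and Mt2, small proteins that bind zinc and copper, belong to this group and to the glucocorticoid targets. Mt2 read 1523, 1979, 1521, 1311 and 1226 at 6 h and 410.3, 531, 480.0, 393 and 614 at 24 h and fell by 1.61 ± 0.19 (SE, adjusted p = 7.61e-07). Mt1 fell by 1.42 ± 0.18 (SE, adjusted p = 1.67e-06). Every 24 h array was below every 6 h array for both.

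Glucocorticoid receptor targets were the list with the most falls among the pathway lists: 14 of 24 were lower at 24 h, 0 higher, and 22 of 24 had a negative change. The median of the list was -0.71, and 2.48% of all genes were lower. Leaving out 6 h replicates 2 and 3, 11 fell. Fkbp5, a co-chaperone of the receptor, read 642, 931, 547, 486 and 488 at 6 h and 189.8, 167, 204, 213 and 167 at 24 h. It fell by 1.60 ± 0.21 (SE, adjusted p = 2.73e-06). Tsc22d3, known as GILZ, a mediator of anti-inflammatory glucocorticoid action, read 1755, 1444, 1209.7, 1519 and 1421 at 6 h and 541, 478, 496, 618 and 650.4 at 24 h and fell by 1.38 ± 0.22 (SE, adjusted p = 9.66e-05). The 2 times did not overlap for either gene.

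Zbtb16, the zinc finger factor PLZF, read 307, 427, 351, 203 and 391 at 6 h and 73.5, 21.7, 54.8, 127 and 53.6 at 24 h. It fell by 2.19 ± 0.34 (SE, adjusted p = 6.93e-05). Its other, slightly dimmer probe set changed by -0.21 with an unadjusted p of 0.559, so the probe sets disagree. Angptl4, a secreted inhibitor of lipoprotein lipase that fasting also induces, read 527, 578, 306, 536 and 475 at 6 h and 91.6, 124, 186, 149.5 and 113 at 24 h and fell by 1.75 ± 0.23 (SE, adjusted p = 4.38e-06). The kinase Sgk1 fell by 0.72 ± 0.16, the transcription factors Klf9 by 0.70 ± 0.17 and Cebpd by 0.96 ± 0.19, glutamine synthetase Glul by 0.65 ± 0.17, the ERBB feedback inhibitor Errfi1 by 0.92 ± 0.18 and the NF-κB inhibitor Nfkbia by 0.64 ± 0.11. Per1, a clock gene and receptor target, did not pass with -0.59 (adjusted p = 0.0772).

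Of 24 immediate early genes 8 fell and 1 rose, beside 2.48% and 2.9% of all genes, with a median of -0.29. There were 4 falls and 0 rises without 6 h replicates 2 and 3, 4 falls without replicate 2 alone, and 5 falls each without 6 h replicate 3 or 24 h replicate 3. Myc, the growth-promoting factor, read 122, 129.7, 127, 105 and 109 at 6 h and 45.4, 29.2, 34.7, 47.7 and 68.5 at 24 h, and fell by 1.17 ± 0.17 (SE, adjusted p = 2.93e-05). Fosl1, an AP-1 subunit, fell by 1.03 ± 0.15 (SE, adjusted p = 2.02e-05), with the times apart. Atf3, a stress-induced repressor, read 378, 266, 241, 86.5 and 127 at 6 h and 83.6, 57.8, 52.7, 90.2 and 62.2 at 24 h, so that the times overlapped. It fell by 1.33 ± 0.34 (SE, adjusted p = 0.0168), but was at -1.09 (adjusted p = 0.219) without 6 h replicates 2 and 3. Fos fell by 0.68 ± 0.20. The shear-stress factor Klf2 rose by 0.89 ± 0.20 (SE, adjusted p = 0.00664), and was at 0.61 (adjusted p = 0.19) without both arrays.

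Some inflammatory transcripts fell. Cxcl1, which attracts neutrophils, read 55.1, 419, 143, 239 and 66 at 6 h and 38.2, 25.2, 14, 16.5 and 34.7 at 24 h. Levels varied widely among the 6 h arrays, with replicate 2 highest, and the times did not overlap, and Cxcl1 fell by 1.97 ± 0.33 (SE, adjusted p = 0.000234). Cxcl2 followed the same order at 6 h, reading 38.2, 197, 58.1, 107 and 40.4 at 6 h and 19.7, 22.1, 17.6, 25.1 and 17.2 at 24 h, and fell by 1.31 ± 0.25 (SE, adjusted p = 0.000862). The same array was highest for Il1b, which read 106, 308, 128, 151 and 79.2 at 6 h and 73.4, 76.4, 45.3, 50.4 and 69.9 at 24 h. Il1b fell by 0.99 ± 0.24 (SE, adjusted p = 0.00921) and was at -0.73 (adjusted p = 0.0599) without 6 h replicate 2.

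Of 26 chemokines 5 fell and 1 rose, beside 2.48% and 2.9% of all genes. The others that fell were Ccl9 by 0.95 ± 0.24, Ccl17 by 0.84 ± 0.22 and Cxcl16 by 0.33 ± 0.10, and the stromal chemokine Cxcl12 rose by 0.83 ± 0.13. Of the chemokines 2 fell without 6 h replicates 2 and 3, and 2 without replicate 2 alone. Over all 12393 genes 74 and 169 fell in these fits. Of 31 acute phase and innate inflammation genes 6 fell and 0 rose, beside the same shares of all genes, with a median of -0.35. Among those that fell were Il1b, the STAT3 feedback inhibitor Socs3 by 0.78 ± 0.17 and the lipopolysaccharide co-receptor Cd14 by 0.66 ± 0.19. Dimmer Socs3 probe sets changed by -0.36 and -0.63, with unadjusted limma p of 0.102 and 0.000821. Of the list, 2 fell without both arrays and 3 without replicate 2 alone. Of 16 neutrophil markers 1 passed, beside 5.37% of all genes. This was Clec4e, which fell by 1.26 ± 0.26 (SE, adjusted p = 0.00258). It was at -0.84 (adjusted p = 0.125) without 6 h replicates 2 and 3 and at -1.05 (adjusted p = 0.0514) with the squamous and skeletal muscle means as covariates. A dimmer Clec4e probe set changed by -0.23 with an unadjusted limma p of 0.375. The mean log2 level of the 16 neutrophil markers was 6.58, 7.01, 6.57, 6.57 and 6.38 at 6 h and 6.39, 6.29, 6.34, 6.48 and 6.25 at 24 h, highest on 6 h replicate 2. Its part in the chemokine result was not tested. Of 23 interferon response genes 0 rose and 0 fell, and their median was -0.10.

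Of 21 genes of the unfolded protein response 6 fell and 3 rose, beside 2.48% and 2.9% of all genes. Of the falls, 5 were genes of the ATF4 branch, which answers amino acid shortage and endoplasmic reticulum stress. Atf4 itself read 944, 1281, 954, 751 and 875 at 6 h and 539.8, 457, 383, 584 and 538 at 24 h and fell by 0.91 ± 0.13 (SE, adjusted p = 1.47e-05). Asparagine synthetase Asns, a target of ATF4, read 372, 521, 429.6, 441 and 368 at 6 h and 189, 187, 251, 324 and 206 at 24 h and fell by 0.86 ± 0.14 (SE, adjusted p = 8.92e-05). Trib3, Chac1 and Atf3 of the same branch fell by 0.64 ± 0.15, 0.81 ± 0.24 and 1.33 ± 0.34. Outside that branch Dnajb9, a co-chaperone of the endoplasmic reticulum, fell by 0.46 ± 0.14. The rises were chaperones and folding enzymes of the endoplasmic reticulum, namely Sdf2l1 by 0.99 ± 0.17, Pdia6 by 0.66 ± 0.15 and Calr by 0.47 ± 0.09. There were 2 falls and 3 rises without 6 h replicates 2 and 3, and 3 falls without 6 h replicate 1, 2 or 3 alone.

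**Figure D3:**
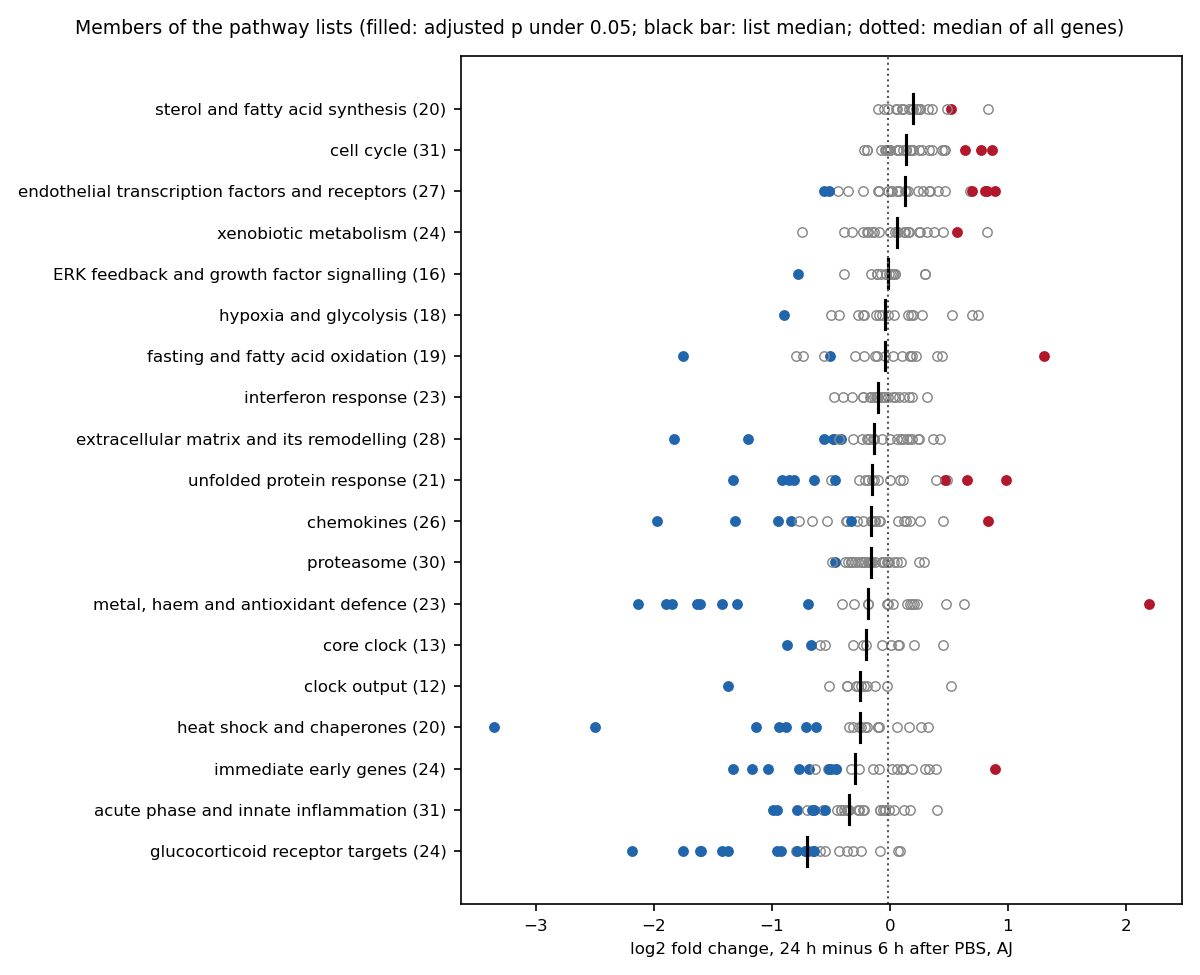
Log2 fold change (24 h minus 6 h after PBS, AJ) of every measured member of the 19 pathway lists, with the number measured in brackets; filled points passed an adjusted p of 0.05 (blue lower, red higher at 24 h), black bars are list medians and the dotted line is the median of all genes. Glucocorticoid receptor targets have the lowest median, -0.71, and Hspa1b and Hspa1a are the largest falls.

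Matrix and wound-related genes gave 6 falls and 0 rises among 28, beside 2.48% and 2.9% of all genes. Lox, lysyl oxidase, which cross-links collagen and elastin, read 1078, 1503, 888, 818 and 1087 at 6 h and 299, 232, 354, 306 and 245 at 24 h. It fell by 1.83 ± 0.25 (SE, adjusted p = 6.43e-06). Thbs1, thrombospondin 1, an activator of TGF-β, read 386, 492, 426, 339 and 383 at 6 h and 157, 132, 155, 198 and 193 at 24 h and fell by 1.21 ± 0.13 (SE, adjusted p = 1.21e-07). Tissue plasminogen activator Plat, the metalloproteinase Mmp3, periostin Postn and the basement membrane collagen Col4a1 fell by 0.56 ± 0.14, 0.48 ± 0.11, 0.48 ± 0.14 and 0.42 ± 0.10. Lox and Thbs1 were the 2 that fell without 6 h replicates 2 and 3, Lox at -1.74 (adjusted p = 0.000352) and Thbs1 at -1.08 (adjusted p = 3.37e-05).

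Other genes among the 15 largest falls had separate roles. Artn, artemin, a neurotrophic factor of the GDNF family, read 65, 55.5, 65.9, 72.8 and 67.3 at 6 h and 7.23, 6.12, 13.8, 7.49 and 9.02 at 24 h and fell by 1.72 ± 0.23 (SE, adjusted p = 4.56e-06). Slc26a4, the anion exchanger pendrin of airway epithelium, read 190.1, 781, 509, 259 and 131 at 6 h and 80.1, 93.7, 74.3, 93 and 68.8 at 24 h. It was again highest on 6 h replicate 2, fell by 1.73 ± 0.33 (SE, adjusted p = 0.00105) and was at -1.06 (adjusted p = 0.098) without 6 h replicates 2 and 3. Ifrd1, a co-regulator of transcription, fell by 1.61 ± 0.19 (SE, adjusted p = 2.94e-07). Outside those 15, 1 of 18 hypoxia and glycolysis genes passed, beside 5.37% of all genes. This was Adm, the vasodilator adrenomedullin, which fell by 0.90 ± 0.23 (SE, adjusted p = 0.0142). It was at -0.86 (adjusted p = 0.123) without 6 h replicates 2 and 3, at -0.83 (adjusted p = 0.0825) with the squamous and skeletal muscle means as covariates and at -0.87 (adjusted p = 0.0649) with the muscle and adipose means.

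Of 13 core clock genes 2 fell and 0 rose, and of 12 clock output genes Tsc22d3 alone passed and fell, beside 2.48% of all genes that fell. Per2, a repressor of the loop, read 131, 123, 105, 114 and 112 at 6 h and 66.7, 72.8, 64.2, 64.6 and 70.0 at 24 h, and fell by 0.67 ± 0.16 (SE, adjusted p = 0.00841). Its dimmer probe set changed by -0.19. Cry1, the partner of the Per proteins, read 64.6, 43.3, 70.3, 55.4 and 50.5 at 6 h and 31.3, 29.8, 17, 13.9 and 28.3 at 24 h and fell by 0.87 ± 0.20 (SE, adjusted p = 0.00632). With the squamous and skeletal muscle means as covariates Per2 was at -0.53 (adjusted p = 0.0958) and Cry1 at -0.74 (adjusted p = 0.0723).

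The activators Arntl and Clock were at 0.07 (adjusted p = 0.832) and 0.01 (adjusted p = 0.978), and the nuclear receptors Nr1d1 and Nr1d2 at 0.45 (adjusted p = 0.232) and -0.32 (adjusted p = 0.425). Rora did not pass with -0.55 (adjusted p = 0.0793), although its groups did not overlap. The output factors Dbp, Tef and Hlf were at 0.52 (adjusted p = 0.138), -0.24 (adjusted p = 0.24) and -0.36 (adjusted p = 0.128). A value that did not pass does not show that a gene kept its level.

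Among the rises, Cckar, the receptor of the gut hormone cholecystokinin, was among the largest. It read 103, 94.8, 98.6, 65.4 and 110.1 at 6 h and 312, 293, 206, 316 and 342 at 24 h, with no overlap, and rose by 1.49 ± 0.17 (SE, adjusted p = 2.51e-07). Ces1g, a carboxylesterase, read 42, 42.9, 33.6, 36.5 and 27.4 at 6 h and 136, 123, 81.6, 147 and 136 at 24 h and rose by 1.41 ± 0.15 (SE, adjusted p = 8.36e-08). Esm1, endocan, a proteoglycan secreted by endothelium, was near the floor at 6 h, with 1.72, 5.21, 11.7, 5.11 and 14.6 at 6 h and 51.8, 27.3, 25.1, 72.6 and 82.5 at 24 h. It rose by 1.46 ± 0.24 (SE, adjusted p = 0.00013).

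Asf1b, a histone chaperone of dividing cells, read 19.4, 95.8, 30.8, 22.8 and 31.5 at 6 h and 116, 113, 119, 150.1 and 127 at 24 h, so that 6 h replicate 2 lay close to the 24 h arrays. It rose by 1.47 ± 0.34 (SE, adjusted p = 0.00798). Zdhhc1, of the palmitoyltransferase family, read 12.1, 4.82, 9.59, 18.6 and 14.3 at 6 h and 79.7, 50.6, 71.9, 23.3 and 98.2 at 24 h and rose by 1.46 ± 0.24 (SE, adjusted p = 0.000104). Slc27a3, of the fatty acid transport family, rose by 1.12 ± 0.23 (SE, adjusted p = 0.00268). These 3 and Cckar, Ces1g, Esm1 and Blvrb passed without any 1 array and under every alternative in which they were tested. Zdhhc1, Slc27a3, Ces1g and Esm1 were not tested when the dimmest 25% of genes were left out.

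Several other large rises did not pass without 6 h replicates 2 and 3, which had the highest Gapdh ratios. What part RNA quality or tissue content had in this was not tested. Ldb1, a scaffold of LIM-domain factors, read 113, 33.9, 12.4, 124 and 73.9 at 6 h and 136, 169.6, 206, 146 and 172 at 24 h, lowest on 6 h replicates 2 and 3. It rose by 1.28 ± 0.32 (SE, adjusted p = 0.0141) and was at 0.62 (adjusted p = 0.423) without both. Sema3f, a guidance cue, read 207, 96.9, 33.4, 275 and 137 at 6 h and 312, 309, 380.2, 276 and 347 at 24 h, rose by 1.27 ± 0.36 (SE, adjusted p = 0.0323) and was at 0.66 (adjusted p = 0.501) without both. Vegfb, a growth factor of the VEGF family, rose by 1.32 ± 0.40 (SE, adjusted p = 0.0467) and was at 0.70 (adjusted p = 0.559), and the deubiquitinase Josd2 rose by 1.13 ± 0.33 (SE, adjusted p = 0.0357) and was at 0.62 (adjusted p = 0.494). Ldb1 and Josd2 also did not pass with the Gapdh ratio, the muscle and adipose means or the squamous and skeletal muscle means as covariates. Fabp3, a fatty acid carrier of heart and skeletal muscle, rose by 1.31 ± 0.35 (SE, adjusted p = 0.0221) alongside the muscle markers and was at 0.51 (adjusted p = 0.319) with the muscle and adipose means as covariates.

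Of 27 endothelial transcription factors and receptors 4 rose and 2 fell, beside 2.9% and 2.48% of all genes. The rises were Klf2, the receptors Tie1 by 0.83 ± 0.22 and Aplnr by 0.70 ± 0.19, and the BMP9 receptor Acvrl1 by 0.81 ± 0.25. The falls were Gata2 by 0.56 ± 0.12 and the endothelial cadherin Cdh5, which read 1537, 1484, 1582, 1448 and 1542 at 6 h and 854, 1249.7, 1039, 1339 and 879.9 at 24 h and fell by 0.52 ± 0.13 (SE, adjusted p = 0.0175). A dimmer Cdh5 probe set changed by 0.26 with an unadjusted p of 0.467. There were 0 rises and 1 fall without 6 h replicates 2 and 3, 1 rise without 6 h replicate 2, and 2 rises without 6 h replicate 3 or without 24 h replicate 1, 2 or 3. The falls came to 1 without 24 h replicate 1 or 5.

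Of 31 cell cycle genes 3 rose and 0 fell, beside 2.9% and 2.48% of all genes. The 3 take part in DNA synthesis. The helicase subunits Mcm5 and Mcm6 rose by 0.64 ± 0.15 and 0.77 ± 0.19, and thymidine kinase Tk1 by 0.87 ± 0.24. The list's median was 0.14, and 1 rose without 6 h replicates 2 and 3. Of the airway lists, Retnla among 13 club cell genes rose, by 0.76 ± 0.20 (SE, adjusted p = 0.019). It encodes a secreted factor of airway epithelium and alternatively activated macrophages, and was at 0.73 (adjusted p = 0.153) without 6 h replicates 2 and 3. The motile cilium gene Rsph1 rose by 0.81 ± 0.24 among 8 ciliated cell genes, which had a median of 0.41 and 8 positive changes. Of 15 smooth muscle genes Des and Ckb rose, by 0.84 ± 0.24 and 0.94 ± 0.14. Des is also made by skeletal muscle, and 6 h replicate 5, high in skeletal muscle genes, was apart from the other 6 h arrays for it. A second Des probe set changed by -0.20. Leaving out single arrays gave 1 to 5 rises in the smooth muscle list and 0 to 2 in the ciliated list. For each of these lists the share of all genes that rose is the same 2.9%.

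Of 20 genes of sterol and fatty acid synthesis Srebf1, the lipogenic transcription factor, rose by 0.52 ± 0.13 (adjusted p = 0.0161), and the list's median was 0.19. Of 24 genes of xenobiotic metabolism the alcohol dehydrogenase Adh1 rose, at 0.57 (adjusted p = 0.0242). Of 30 proteasome subunits 1 fell and 0 rose, with a median of -0.16, of 16 ERK feedback genes 1 fell and of 19 fasting and fatty acid oxidation genes 2 fell and 1 rose, beside 5.37% of all genes called in either direction. Of 12 mast cell and basophil genes Kit, the stem cell factor receptor, and Gata2 fell, at -0.56 (adjusted p = 0.00754) and -0.56 (adjusted p = 0.00383). The list's median was -0.06, with 6 negative and 6 positive changes, and Gata2 is also in the endothelial list. Without 6 h replicates 2 and 3 Kit was at -0.46 (adjusted p = 0.153). With the squamous and skeletal muscle means as covariates Kit was at -0.39 (adjusted p = 0.147) and Gata2 at -0.42 (adjusted p = 0.0803), and with the muscle and adipose means neither passed. Leaving out 1 array gave 0 to 1 calls for the sterol, xenobiotic and ERK lists, 0 to 3 falls for the proteasome, and 1 fall and 0 rises at the least for fasting.

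In C3H mice given PBS, 398 genes passed between 24 h and 6 h, 3.21% of those tested. No array is shared with the AJ comparison. The 125 genes called in both with the same sign are 18.8% of the AJ calls and 31.4% of the C3H calls, and 0 were called with opposite signs. Of the AJ falls 82 of 307 (26.7%) were also called lower in C3H, and of the AJ rises 43 of 359 (12%) were called higher. Of the 666 AJ calls, 76.6% had the same sign in C3H, against 55.3% of all genes. Across 12393 genes, which are not independent replicates, the changes had a Pearson r of 0.37.

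In C3H, Hspa1b changed by -3.51 ± 0.23, Hspa1a by -3.15 ± 0.25, Hmox1 by -1.71 ± 0.25, Gclc by -1.98 ± 0.20 and Mt2 by -1.72 ± 0.19 (SE, n = 5 against 5). Of 24 glucocorticoid receptor targets 11 fell in C3H, with a list median of -0.71, and of 23 metal, haem and antioxidant genes 8 fell and 2 rose. Of all genes 180 fell in C3H (1.45%) and 218 rose (1.76%). Of 20 chaperones 3 fell in C3H. Hsph1 was at -0.06 ± 0.18 in C3H and -0.94 ± 0.18 in AJ, a difference of 0.88 ± 0.25 (SE, adjusted p = 0.115), which did not pass.

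The difference of the time effect between the strains, C3H minus AJ, was tested directly and passed for 23 genes, 0.186% of those tested. At an unadjusted p under 0.05 there were 1700. Among them Zbtb16 fell in AJ by 2.19 ± 0.34 and changed in C3H by 0.13 ± 0.34, a difference of 2.32 ± 0.48 (SE, adjusted p = 0.0261). This was measured by its brightest probe set, and the difference did not pass with the mean of its probe sets. Zdhhc1 rose in AJ by 1.46 ± 0.24 and changed in C3H by -0.54 ± 0.24, a difference of -2.003 ± 0.33 (SE, adjusted p = 0.007). Tnfrsf12a, the receptor of the cytokine TWEAK, fell in AJ by 1.23 ± 0.21 and was at -2.58 ± 0.21 in C3H, a difference of -1.34 ± 0.30 (SE, adjusted p = 0.0442).

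Mboat1, a lysophospholipid acyltransferase, changed by -0.77 ± 0.13 in AJ and 0.30 ± 0.13 in C3H, a difference of 1.06 ± 0.19 (SE, adjusted p = 0.007). The potassium channel Kcnk2 changed by -0.54 ± 0.16 in AJ and 0.52 ± 0.16 in C3H, a difference of 1.06 ± 0.22 (SE, adjusted p = 0.0261). Cdh5 differed by 0.90 ± 0.19 (SE, adjusted p = 0.0261). The count of 23 rested on few arrays: it was 9 without AJ 6 h replicate 3 and 9 without AJ 24 h replicate 3, 12 without AJ 6 h replicate 5, 11 without C3H 6 h replicate 2 and 11 without C3H 24 h replicate 5. With the Gapdh ratio as a covariate it was 0. It was 5 without AJ 6 h replicates 2 and 3. It rose to 41 without AJ 6 h replicate 4, to 37 without AJ 24 h replicate 4 and to 47 without C3H 6 h replicate 5.

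In AJ mice given allergen, 2373 genes passed between 24 h and 6 h, 19.1% of those tested. Again no array is shared. The 297 genes called in both with the same sign are 44.6% of the PBS calls and 12.5% of the allergen calls, and 10 were called with opposite signs. Of the 24 glucocorticoid receptor targets 17 fell after allergen, with a median of -0.84, and 14 fell after PBS. Of all genes 865 fell after allergen (6.98%) and 307 after PBS (2.48%). Fkbp5 was at -1.10 ± 0.21 after allergen, Mt2 at -1.66 ± 0.19, Gclc at -2.12 ± 0.20 and Srxn1 at -1.21 ± 0.16.

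The difference of the AJ time effect, allergen minus PBS, passed for 697 genes (5.62% of those tested), 437 positive and 260 negative. With arrays centred on their medians 290 were positive and 273 negative. Among the positive differences was that of Hspa1b, which fell by 3.36 ± 0.23 after PBS and was at 0.33 ± 0.23 after allergen, a difference of 3.69 ± 0.33 (SE, adjusted p = 1.53e-09). Hspa1a was at 0.49 ± 0.25 after allergen, a difference of 2.99 ± 0.36 (SE, adjusted p = 7.18e-07). Hmox1 was at 0.54 ± 0.25 after allergen, a difference of 2.67 ± 0.36 (SE, adjusted p = 3.95e-06). Between the times after allergen Hspa1b, Hspa1a and Hmox1 themselves did not pass (adjusted p = 0.375, 0.194 and 0.139). Of 20 chaperones 7 differed in the test of allergen minus PBS. Among them Hsph1 was at 0.79 ± 0.18 after allergen, a difference of 1.73 ± 0.25 (SE, adjusted p = 1.7e-05), and Chordc1, an Hsp90 partner, at 1.03 ± 0.18, a difference of 1.28 ± 0.25 (SE, adjusted p = 0.00131).

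Lox and Tsc22d3, which fell after PBS, were at -0.20 ± 0.25 and -0.11 ± 0.22 after allergen, differences of 1.63 ± 0.35 (SE, adjusted p = 0.00305) and 1.27 ± 0.31 (SE, adjusted p = 0.00937). Differences of the opposite sign included those of Acod1, the macrophage enzyme that makes itaconate, at -3.11 ± 0.45 (SE, adjusted p = 1.2e-05), the neutrophil growth factor Csf3, at -2.79 ± 0.50 (SE, adjusted p = 0.000321), the soluble pattern recognition protein Ptx3, at -2.68 ± 0.22 (SE, adjusted p = 4.39e-10), and Cxcl2. Acod1, Csf3 and Ptx3 did not pass between the times after PBS with -0.01 (adjusted p = 0.991), -0.09 (adjusted p = 0.924) and -0.05 (adjusted p = 0.909). Cxcl2 fell by 1.31 ± 0.25 after PBS and was at -3.90 ± 0.25 after allergen, a difference of -2.59 ± 0.35 (SE, adjusted p = 4.34e-06). Acod1 read 1.74 to 4.16 on the 10 AJ PBS arrays, below the pseudocount of 16, so the size of its difference depends on that choice. Over the alternatives the difference ran from -4.10 to -2.02 for Acod1, from -4.10 to -1.63 for Csf3, from -3.32 to -1.75 for Ptx3 and from -2.91 to -2.45 for Cxcl2.

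Ces1g was at -0.17 ± 0.15 after allergen, a difference of -1.58 ± 0.21 (SE, adjusted p = 4.79e-06), and Esm1 at -0.17 ± 0.24, a difference of -1.63 ± 0.34 (SE, adjusted p = 0.00187). Cckar rose in all 3 comparisons, by 1.49 ± 0.17 in AJ after PBS, by 1.14 ± 0.17 in C3H after PBS and by 0.77 ± 0.17 in AJ after allergen.

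**Figure D4:**
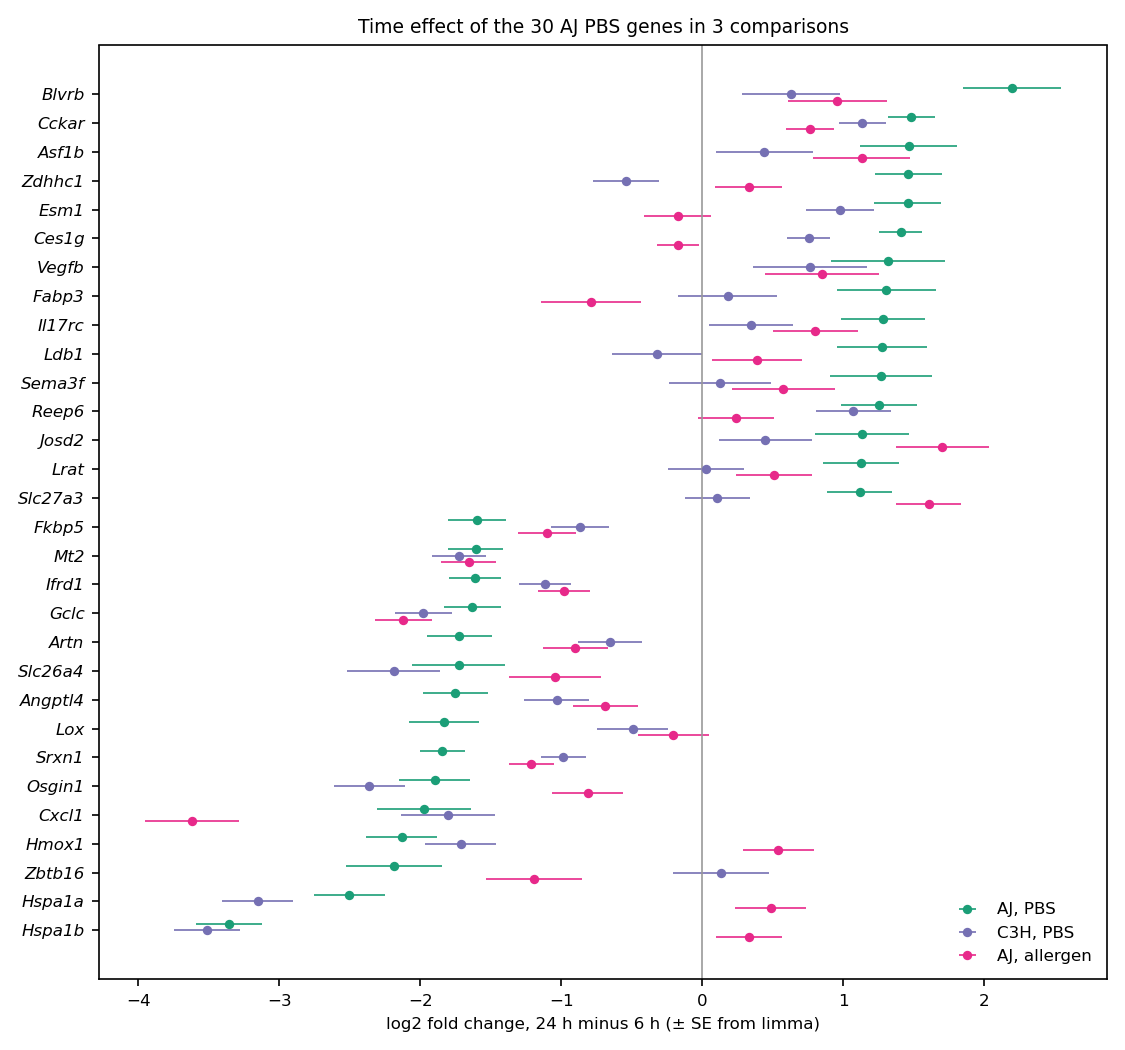
Log2 fold change (24 h minus 6 h, ± SE from limma, 5 against 5 arrays) of the 15 largest rises and 15 largest falls of AJ mice after PBS whose groups did not overlap, in AJ after PBS, C3H after PBS and AJ after allergen. The genes were chosen on the AJ PBS values. Hspa1b, Hspa1a and Hmox1 lie far below 0 after PBS in both strains. After allergen they lie above 0 but did not pass (limma adjusted p = 0.375, 0.194 and 0.139). Zbtb16 is near 0 in C3H.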

How the data were processed

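Gene expression was measured in 40 mouse lung samples on 1-colour Affymetrix arrays. The authors deposited 1 linear intensity per probe set and array. The software that made these values is not given in the sources used here. Trimmed means (2 percent at each end) were 149.99 on each array analysed here, so the deposited intensity values had been scaled, while array medians ran from 63.7 to 81.3. No pair of arrays was identical.

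Of 22690 probe sets, 20380 had 1 symbol in the platform annotation. 691 had several, 1555 had none and 64 were controls, and these were left out. Genes took their brightest probe set, giving 12393. Intensities were taken as log2(intensity + 16), which understates changes of dim genes, and 13.6% of values lay below 16. A fit of 8 group means over the 40 arrays used limma 3.58.1 (lmFit, eBayes; R 4.3.3; 32 residual and 4.62 prior degrees of freedom) with Benjamini-Hochberg adjustment over all genes, two-sided, threshold 0.05. The difference of the time effect between strains and between treatments was a contrast of the same fit.

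Named genes were the 15 largest rises and falls that passed without overlap, the 4 largest passing changes of each list, all clock and chaperone genes, the 6 largest of each sign in each difference, and Sftpc, Scgb1a1, Cdh5, Ptprc and Hc; not all are printed, and other members were named after their values were seen. The gene set compared, the lists and the rule were chosen with earlier results of these data known. Promoters were RefSeq's of build GRCm38.p6, matched by symbol for 9887 of the tested genes. The test was checked on simulated data with known changes and independent normal noise for each gene. Differences shared across a whole array, such as those of RNA quality or muscle, were not simulated. Alternatives were quantile and median scaling, pseudocounts of 1 and 64, leaving out the dimmest 25% of genes, other probe set rules, fits to fewer arrays, trend, array weights, a replicate block, covariates and leaving out single arrays.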

Additional observations from a re-analysis of the deposited data

Results flagged for a closer look

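Among 135 named genes, 15 of 270 groups of 5 arrays held 1 array far from the others by Dixon's ratio, where chance gives about 1 in 20. The log2 levels of these arrays against the range of the other 4 were, at 6 h, those of Blvrb on 6 h replicate 5 (6.25 against 4.73 to 5.08), Asf1b on 6 h replicate 2 (6.80 against 5.14 to 5.57), Slc27a3 on 6 h replicate 5 (5.03 against 4.52 to 4.65), Socs3 on 6 h replicate 5 (7.39 against 7.93 to 8.14), Cd14 on 6 h replicate 2 (9.87 against 8.46 to 8.75), Tk1 on 6 h replicate 4 (4.43 against 5.18 to 5.36), Des on 6 h replicate 5 (8.79 against 7.41 to 7.76), Stk39 on 6 h replicate 3 (6.13 against 5.62 to 5.73), Kcnk2 on 6 h replicate 3 (8.50 against 7.89 to 8.01). At 24 h they were those of Cd14 on 24 h replicate 3 (7.83 against 8.24 to 8.38), Adm on 24 h replicate 3 (5.55 against 4.61 to 4.82), Tk1 on 24 h replicate 3 (5.004 against 6.10 to 6.40), Hspb1 on 24 h replicate 5 (10.72 against 10.98 to 11.04), Stk39 on 24 h replicate 5 (6.06 against 5.29 to 5.40), Hc on 24 h replicate 1 (7.80 against 8.40 to 8.52). Of the marker list means, that of the alveolar genes was 11.21 against 10.91 to 10.96 on 6 h replicate 1, and that of the cardiac genes 9.14 against 7.92 to 8.26 on 24 h replicate 3.

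The time effect differed between the strains (C3H minus AJ, limma adjusted p under 0.05) for Zdhhc1 (-2.003), P2ry6 (-1.97), Snx21 (-1.71), Sdc4 (-1.40), Tnfrsf12a (-1.34), 2310011J03Rik (-1.17), Zbtb16 (2.32), Papss2 (1.25), Irf2 (1.24), Stk39 (1.19), Mboat1 (1.06) and Kcnk2 (1.06), as log2 differences. It differed between allergen and PBS in AJ (allergen minus PBS) for Acod1 (-3.11), Csf3 (-2.79), Ptx3 (-2.68), Cxcl2 (-2.59), Cxcl10 (-2.54), Zc3h12a (-2.40), Hspa1b (3.69), Hspa1a (2.99), Hmox1 (2.67), Cd163 (2.29), Meis1 (2.25), Lrr1 (2.12), Zdhhc1 (-1.13), Esm1 (-1.63), Ces1g (-1.58), Fabp3 (-2.09), Cxcl1 (-1.65), Lox (1.63) and Angptl4 (1.07).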

How the results depend on the processing

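For the AJ PBS comparison (666 genes) the count was 407 in a fit to the 10 arrays alone, 1149 with array weights, 258 with muscle and adipose means as covariates, 268 with the Gapdh ratio as a covariate, and, in alternatives chosen after seeing the data, 220 with squamous and skeletal muscle means as covariates and 137 without 6 h replicates 2 and 3. Leaving out 1 array gave 342 to 790. The labels do not say whether replicate numbers pair the samples. Same-number deviations correlated at 0.05, -0.05, -0.18, 0.11 and 0.19, and 1 of 5 6 h arrays correlated best with its own number. These few values cannot settle whether arrays of 1 number were handled together. With the number as a replicate block, in a fit to the 10 arrays, the count was 119. With such a block it was 0 for the strain difference and 505 for the allergen difference, which take in further arrays.

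For the strain difference (23 genes) the count was 3 in a fit to the compared arrays, 58 with array weights, 41 with every probe set tested, 10 with muscle and adipose means, 0 with the Gapdh ratio and 5 without AJ 6 h replicates 2 and 3. Leaving out 1 array gave 9 to 47. For the allergen difference (697 genes) it was 1118 with array weights, and leaving out 1 array gave 592 to 825. Beside fewer arrays in some fits, the cause of these changes was not tested. The remaining alternatives kept each count within 1.5 times.

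Of 85 named genes that passed in AJ after PBS, 30 passed under every alternative in which they were tested and without any 1 array, and 0 changed sign. Of 12 genes named for the strain difference 0 did, and of 12 for the allergen difference 11 did.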

Other observations

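Further gene groups, drawn up after the values were seen and so described without a test, moved between the times in AJ after PBS. Beside the counts below, 2.48% of all genes fell and 2.9% rose. Of 29 measured ATF4 targets and amino acid transporters, 11 fell and 0 rose, with a median of -0.38 and 28 negative changes. Without 6 h replicates 2 and 3, 7 fell. Slc7a5 and Slc3a2, the subunits of a neutral amino acid exchanger, fell by 1.18 ± 0.21 and 0.73 ± 0.11, and Psat1, an enzyme of serine synthesis, by 0.70 ± 0.13. Among 18 aminoacyl-tRNA synthetases Iars, Aars, Tars, Nars and Gars fell, by 0.64 ± 0.14, 0.63 ± 0.14, 0.52 ± 0.13, 0.49 ± 0.10 and 0.41 ± 0.11, while Wars, which interferon also induces, rose by 0.40 ± 0.12. In all, 0 of the list passed without both arrays, and 3 fell without either alone. Of 49 ribosome biogenesis genes 13 fell and 0 rose, led by nucleostemin Gnl3 at -0.71, but 0 passed without both arrays, and leaving out 1 array gave 2 to 14, with the fewest without 6 h replicate 3 (2), then 6 h replicate 2 and 24 h replicate 3 (5 each) and 24 h replicates 1 and 2 (7 each).

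In a wider set of 32 NRF2 targets 11 fell and 3 rose, and 1 rose without 6 h replicate 1, 6 h replicate 2 or 24 h replicate 5. Beside the genes described above, the small Maf factor Maff fell by 1.55 ± 0.18, xanthine dehydrogenase Xdh by 0.99 ± 0.18, the aldo-keto reductase Akr1b8 by 0.87 ± 0.12 and the autophagy receptor Sqstm1 by 0.59 ± 0.09. The falls came to 9 without 6 h replicates 2 and 3. Of 69 respiratory chain subunits 10 rose and 0 fell, and 65 had positive changes, with a median of 0.30. Ndufc1 of complex I rose by 0.68 ± 0.12, Uqcrq of complex III by 0.78 ± 0.15 and the ATP synthase subunit Atp5e by 0.79 ± 0.20. These subunits are abundant in muscle, and the mean level of skeletal muscle genes was higher at 24 h. The part of muscle in their rise was not tested. With the squamous and skeletal muscle means as covariates 1 of the subunits passed, and 2 without 6 h replicates 2 and 3. Over all genes the count also went from 666 to 220 and 137 in these fits. Without 24 h replicate 3, 6 of the subunits passed, and 19 without 24 h replicate 4. Among squamous genes, Krt4, a keratin of the oesophagus, changed by 4.06 (adjusted p = 0.121) and did not pass. Lce1f, a cornified envelope gene, rose by 2.50 ± 0.77 (SE, adjusted p = 0.0481), alone among the 30 squamous genes. The count was 11 without 6 h replicate 5, 1 without 24 h replicate 4 and 0 without any other 1 array or with median centring.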
